A study of Mus musculus with 8 samples.

Results

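Wnt genes form the subject here: the secreted Wnt ligands, the receptors and co-receptors that bind them, the Dishevelled proteins that relay the signal, beta-catenin with its scaffold Axin1, and a set of transcriptional targets and feedback regulators. Members were taken by gene name from the deposited table, namely all 19 genes named Wnt with a number and an optional a or b, all 10 Frizzled genes, and 20 further genes given by symbol, so 49 of the 55401 genes in the table. They were measured by RNA sequencing of cortical bone, the compact wall of a bone, in 4 KO and 4 control libraries of C57BL/6J mice. KO mice carried UbcCre/ERT2 and Ripk4 fl/fl alleles. Control mice carried Ripk4 fl/fl alleles without the Cre. The labels give 4 weeks for both groups without saying whether this is an age, and name no drug, although CreERT2 needs a ligand to act. The ubiquitin C promoter drives the Cre in many cell types, so a change in bone cells and in other cells of the piece cannot be told apart, nor can the presence of the Cre and the loss of Ripk4. The labels do not say that each library came from a separate animal, so p-values measure only the spread between these libraries.

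Wnt proteins are secreted, lipid-modified ligands. In the canonical branch they bind a Frizzled receptor together with Lrp5 or Lrp6, Dishevelled is recruited, the Axin and Apc complex that marks beta-catenin for destruction is held back, and beta-catenin then acts with Tcf and Lef factors on target genes such as Axin2. Other branches run through Ror and Ryk receptors without beta-catenin. In bone the pathway is best known for its effect on bone mass: loss of LRP5 function in people gives osteoporosis, and variants in WNT1 cause brittle bone disease.

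Ripk4, the floxed gene, had estimated counts of 0, 12, 0 and 0 in KO 1 to 4 and 10, 4, 0 and 4 in control 1 to 4, so its level does not check the labels (p = 0.657 in an exact permutation test, two-sided, on log2(FPKM + 0.5), n = 4 per group, where 0.0286 is the smallest p possible). Low values in the table pile up at multiples of 4, so 3 fragments were taken as 12 counts, a floor that covers counting error only, and genes at or below it in every library are called not measurable. Levels are given as deposited FPKM, fragments per kilobase of transcript scaled to the library's total. Totals ran from 61092688 to 66774693 counts per library. KO 4 was the lowest of the 8 libraries for 23 of the 41 members that could be tested, against 28.1% of all tested genes. It was the highest for 5 of the 41, against 18.5% of all tested genes. KO 1 was the lowest for 10 of the 41 members, against 10.6% of all tested genes. Control 3 was the lowest for 23.5% of all tested genes and for 2 of the 41 members. Mitochondrial transcripts made up 5.56% to 6.09% of counts in KO, against 6.17%, 9.21%, 16.07% and 11.7% in control 1 to 4, without overlap. Their part in the Wnt results was not tested beyond leaving these transcripts out of the table, which gave the same 8 calls. Control 3, control 4 and KO 2 had the highest skeletal muscle scores, the mean log2 CPM of 8 muscle genes relative to each gene's mean over the libraries (2.74, 1.44 and 1.08, against -2.72 to 0.56 in the other 5).

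Promoters are shown for 3 members that fell in KO, the ligands Wnt1 and Wnt5b and the receptor Ryk, and for Wnt10b, which did not pass the test but is the neighbour of Wnt1, transcribed away from it and 11706 bases apart. Of the other members that fell, Fzd7 had a window that is not shown, and Ccn4, Wnt5a, Lrp5 and Lrp6 are named only. The windows are shown for their base composition and motif content beside the levels that follow, and no binding or methylation was measured. Each window runs from 250 bases before to 50 bases after a start site in RefSeq (GRCm38.p6), 5′ to 3′ on the strand of the gene, and capitals mark the letters CTTTGAA or CTTTGAT, the core that Tcf and Lef factors bind, searched on both strands.
Wnt1 (chr15:98789607-98789906, plus strand): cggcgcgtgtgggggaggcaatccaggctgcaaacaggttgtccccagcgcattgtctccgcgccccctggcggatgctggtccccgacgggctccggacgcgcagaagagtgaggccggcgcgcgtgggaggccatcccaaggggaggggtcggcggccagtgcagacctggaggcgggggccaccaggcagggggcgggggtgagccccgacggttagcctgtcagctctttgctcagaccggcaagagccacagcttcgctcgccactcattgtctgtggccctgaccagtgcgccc
Wnt10b (chr15:98778101-98778400, minus strand): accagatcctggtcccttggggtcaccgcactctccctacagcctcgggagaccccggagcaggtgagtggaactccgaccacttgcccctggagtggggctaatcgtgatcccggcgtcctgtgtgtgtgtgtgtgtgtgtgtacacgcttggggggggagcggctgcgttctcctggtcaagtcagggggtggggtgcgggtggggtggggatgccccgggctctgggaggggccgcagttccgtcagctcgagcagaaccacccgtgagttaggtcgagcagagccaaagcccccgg
Wnt5b (chr6:119449337-119449636, minus strand): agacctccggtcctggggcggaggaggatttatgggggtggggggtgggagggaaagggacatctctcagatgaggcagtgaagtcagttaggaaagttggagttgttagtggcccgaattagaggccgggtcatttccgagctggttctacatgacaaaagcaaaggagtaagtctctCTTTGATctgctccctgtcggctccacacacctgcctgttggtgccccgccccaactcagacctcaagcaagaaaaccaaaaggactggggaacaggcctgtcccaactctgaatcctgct
Ryk (chr9:102834670-102834969, plus strand): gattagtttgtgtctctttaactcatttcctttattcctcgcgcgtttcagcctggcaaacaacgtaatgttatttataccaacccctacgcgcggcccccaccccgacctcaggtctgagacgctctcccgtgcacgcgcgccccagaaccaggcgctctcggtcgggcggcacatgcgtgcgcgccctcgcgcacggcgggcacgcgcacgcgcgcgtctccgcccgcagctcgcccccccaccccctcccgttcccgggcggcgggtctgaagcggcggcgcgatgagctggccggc
RefSeq windows were used for 34 of the 49 members, 43 windows in all. The other 15 members, among them Fzd8, Apcdd1 and Wnt8a, had no window in this set. The counts of member windows therefore do not cover these 15 members, and their absence does not mean that RefSeq lacks a start site. These letters occurred in 2 of the 43 windows, in Wnt5b at 71 bases and in Wnt11 at 51 bases before the start site, and in 8.65% of all 32851 windows of the same length. The Wnt5b match lies in 1 of 3 windows for that gene, the one shown, which is inside the gene as annotated in the deposited table. The window at the annotated 5′ end of Wnt5b (chr6:119544298-119544597) holds no match. It has 47 CG dinucleotides, against 7 in the window shown. Member windows were rich in CG dinucleotides, with a median of 27 per window against 7 over all windows. A match is a description of letters and says nothing of binding.

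Across the pathway, 8 of 49 members fell in KO and 0 rose (edgeR quasi-likelihood test, adjusted p under 0.05 over 20152 genes). Over all genes tested 10.3% were called, 5.03% as falling and 5.31% as rising. The fallers were the ligands Wnt1, Wnt5a and Wnt5b, the receptors Fzd7, Lrp5, Lrp6 and Ryk, and the target Ccn4. Only 41 members passed the filter on low counts, and 17 of these had an unadjusted p under 0.05, against 5657 of all 20152 genes tested. The median log2 fold change of the 41 was -0.48, against -0.02 over all genes tested. In 12 members every KO library was below every control library, namely the 8 above with Wnt10b, Fzd2, Fzd3 and Fzd5, and in 1, Axin1, every KO library was above. Among all genes tested these shares were 11.5% and 9.21%. Leaving out control 2, control 3 or control 4 brought the number of called members from 8 down to 2, and leaving out KO 3 brought it to 3. Without KO 1 it was 5, including Fzd5 but not Wnt5b, Fzd7, Lrp5 or Lrp6. Without KO 4 it was 9, including Wnt10b but not Lrp5 or Lrp6. Control 3, control 4 and KO 2 were also left out together, an omission chosen after seeing the data that leaves 3 KO and 2 control libraries. There edgeR called 0 members and 23 genes in all. Of the members 11 had an unadjusted p under 0.05, and how many of all genes did in that fit was not counted. In the omissions of a single library, Wnt1 and Ryk passed every time.

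**Figure D1:**
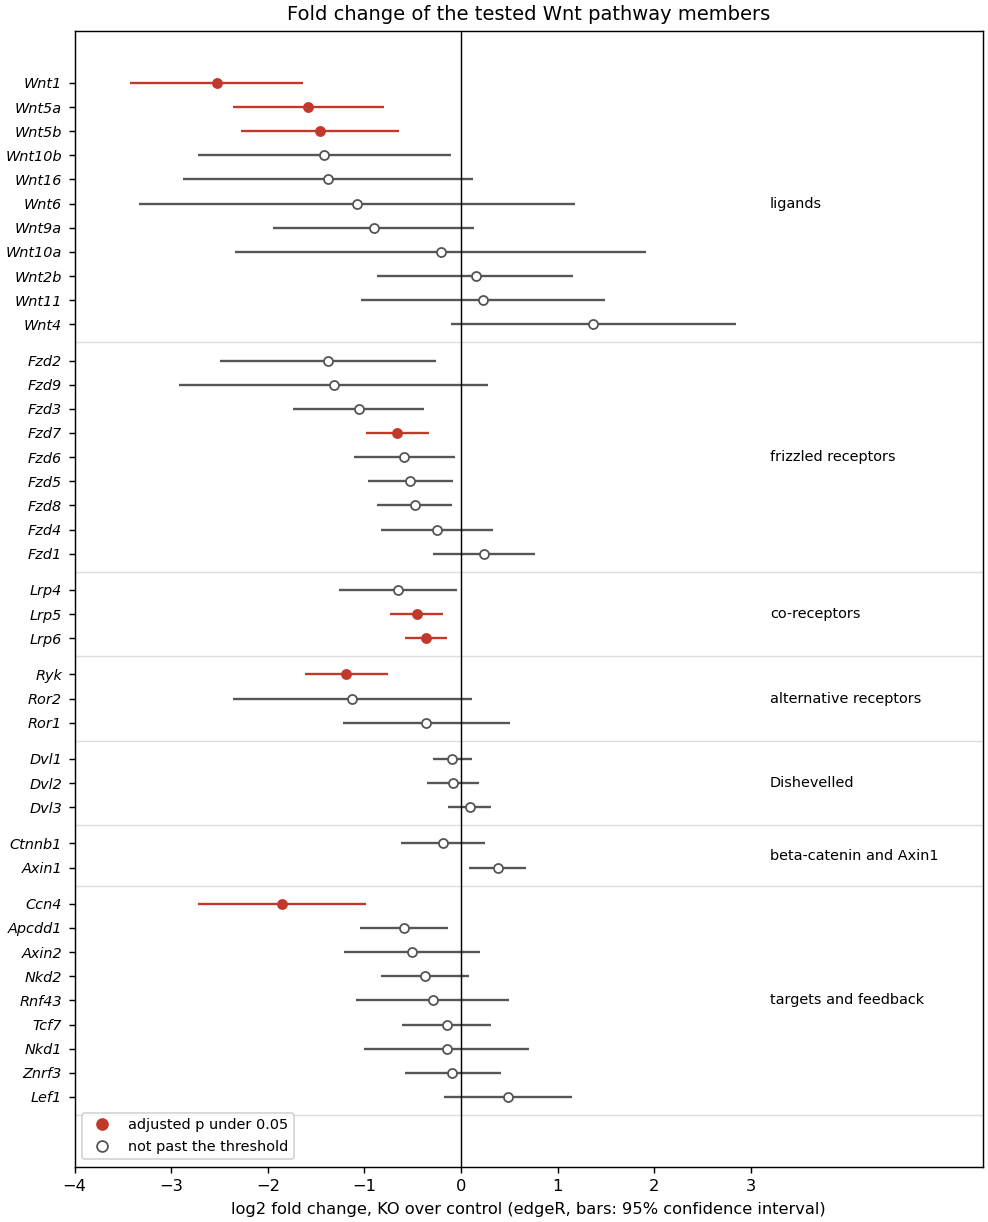
Log2 fold change of KO over control (x axis) for 40 tested members, by class; points are edgeR estimates, bars are 95% confidence intervals, filled red points passed an adjusted p of 0.05. The 8 filled points are all left of 0, from -2.53 (Wnt1) to -0.36 (Lrp6), while the 3 Dishevelled genes lie between -0.09 and 0.09; Fzd10 is left out because its KO counts were at most 12.

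Cell type markers differed between the groups as well. Of the 10 osteoblast markers 6 fell and 0 rose, with a summed level of 1132 to 2521 FPKM in KO and 4482 to 9528 FPKM in control libraries, and of 8 osteocyte markers 3 fell and 0 rose (84.1 to 429 FPKM in KO, 424 to 1066 FPKM in control). KO 4, the lowest library for most Wnt members, had the lowest osteocyte sum, 84.1 FPKM. Fgf23 of that list was highest in KO 4, at 22.6 FPKM. Among KO libraries, KO 4 was also lowest for the chondrocyte (7.83 FPKM), osteoclast (236), neutrophil (55141), B cell (21.3), T cell (14.4) and skeletal muscle (176) sums. It was not the lowest for the osteoblast, erythroid, endothelial or adipocyte sums. KO 4 was the lowest KO library for 6 of the 10 osteoblast markers, Bglap, Bglap2, Col1a1, Alpl, Sp7 and Runx2. KO 3 was the lowest for Col1a2, Ibsp and Sparc, and Ibsp was highest among KO libraries in KO 4, at 201 FPKM. The osteoblast sum of KO 4, 2521 FPKM, was the highest among KO libraries. Spp1 was at 1880 FPKM in KO 4 and 436 to 565 FPKM in the other KO libraries. Of 8 neutrophil markers 7 rose and 0 fell (55141 to 68329 FPKM in KO, 29025 to 41720 FPKM in control). Of 7 chondrocyte markers, 6 of them tested (Matn3 was not), 3 fell (7.83 to 34.3 FPKM in KO, 73.7 to 164 FPKM in control). Of 6 endothelial markers 3 fell (54.8 to 73.9 FPKM in KO, 80.5 to 103 FPKM in control). None of the 8 skeletal muscle markers passed, with sums of 176 to 1252 FPKM in KO and 109 to 3000 FPKM in control libraries. Of 8 B cell markers 2 fell, and of the 6 osteoclast, 8 T cell, 6 erythroid and 5 adipocyte markers 0 passed in either direction. None of the markers in these lists was at or below 12 counts in every library, so RNA of bone, cartilage, blood, vessel, fat and muscle cells was detected beside each other. Their part in the Wnt results was not tested, and in such bulk RNA fewer cells of a type and less RNA per cell cannot be told apart.

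Wnt10b, Wnt4, Wnt5b and Wnt1 were the most abundant ligands, and 3 of the 19 ligands fell in KO: Wnt1, Wnt5a and Wnt5b. Wnt1 acts in osteoblasts and osteocytes and raises bone formation. Its level was 0.221, 0.405, 0.567 and 0.219 FPKM in KO 1 to 4, against 2.84, 2.11, 2.17 and 1.25 FPKM in control 1 to 4. The groups did not overlap, and the nearest pair was KO 3 and control 4. Wnt1 (ENSMUSG00000022997, GRCm38 chromosome 15, 98789857 to 98793837, plus strand) averaged 0.353 ± 0.167 FPKM in KO and 2.09 ± 0.651 FPKM in control (SD, n = 4 each). KO stood at 0.173-fold of control (log2 fold change -2.53 ± 0.39, SE; edgeR adjusted p = 0.0103), the largest called change among the members. It passed with any single library left out (adjusted p at most 0.0345).

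Wnt5b and Wnt5a, close relatives that signal mostly without beta-catenin, also fell. Wnt5b (chromosome 6, 119432531 to 119544347, minus strand) had 2.34, 3.03, 3.01 and 0.863 FPKM in KO 1 to 4, against 6.25, 6.97, 4.29 and 8.43 FPKM in control 1 to 4. KO 4 was the lowest and the groups did not overlap. KO stood at 0.363-fold of control (log2 fold change -1.46 ± 0.36, edgeR adjusted p = 0.0377). This call did not hold when any control library, KO 1 or KO 3 was left out, with edgeR adjusted p as high as 0.105. Wnt5a (chromosome 14, 28504750 to 28527448, plus strand) was scarcer, with 0.0986, 0.284, 0.191 and 0.277 FPKM in KO 1 to 4 and 0.497, 0.794, 0.617 and 0.698 FPKM in control 1 to 4. Here KO 1 was the lowest and KO 4 lay with the others. KO stood at 0.335-fold of control (log2 fold change -1.58 ± 0.34, edgeR adjusted p = 0.0262), a call that did not hold when control 2, control 3, control 4 or KO 3 was left out (edgeR adjusted p as high as 0.0756). Wnt5a shares 358 of its 7823 exon bases with the opposite-strand gene Gm2670, which averaged 4 counts in KO and 8.75 in control.

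Wnt10b, which favours bone over fat formation and is the head-to-head neighbour of Wnt1, did not pass. Its level was 2.22, 4.14, 3.89 and 0.36 FPKM in KO 1 to 4, against 8.55, 7.45, 4.98 and 7.75 FPKM in control 1 to 4. All KO libraries were below all control libraries, but KO 4 lay far below the other KO libraries. Over all libraries the fold did not pass (log2 fold change -1.42 ± 0.58, edgeR adjusted p = 0.15), and leaving out KO 4 gave a smaller fold that did (-1.06, edgeR adjusted p = 0.0326).

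Wnt4, a ligand of the branches with and without beta-catenin, ran the other way in KO 4. It had 1.82, 5.55, 2.52 and 16.6 FPKM in KO 1 to 4 and 2.37, 2.89, 2.91 and 2.45 FPKM in control 1 to 4. KO 2 and KO 4 were above the control range, KO 1 was below it and KO 3 within it. Wnt4 did not pass (log2 fold change 1.37 ± 0.65, edgeR adjusted p = 0.208), and its fitted log2 fold change was 0.3 without KO 4.

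**Figure D2:**
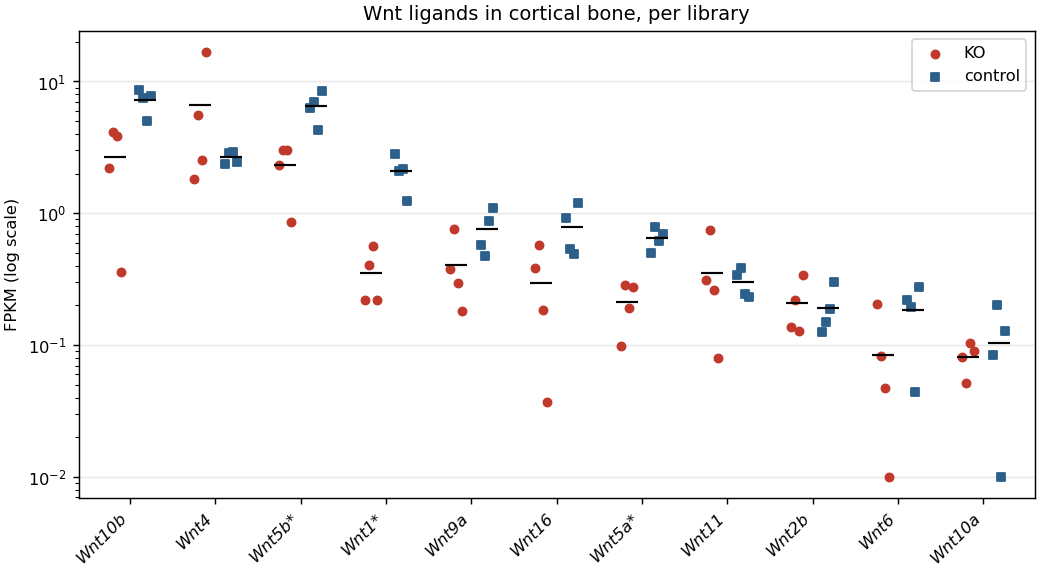
Level of the 11 tested Wnt ligands in FPKM (y axis, log scale), KO circles left of control squares, 1 point per library, bars at the group mean; an asterisk marks a fall past the threshold, and values under 0.01 are drawn at 0.01. KO points of Wnt10b, Wnt5b, Wnt1 and Wnt5a all lie below the control points, and the Wnt4 point at 16.6 FPKM is KO 4.

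The make-up of the ligand transcripts is given as a description, with no test. Summed over the 19 ligands, levels were 8.22, 16.1, 11.3 and 19.2 FPKM in KO 1 to 4 and 22.9, 22.2, 16.9 and 24.0 FPKM in control 1 to 4. The groups overlapped in this sum. Without Wnt4, left out after its values were seen, the sums were 6.4, 10.6, 8.74 and 2.54 FPKM in KO and 20.5, 19.3, 14.0 and 21.5 FPKM in control, and then did not overlap. Wnt4 made up 22.1% to 86.7% of the ligand sum in KO and 10.2% to 17.2% in control, and Wnt1 made up 1.14% to 5.04% in KO and 5.21% to 12.8% in control libraries. Such shares depend on each other, since they add up to the whole: KO 1 had less Wnt4 than any control library, 1.82 FPKM, yet a larger Wnt4 share, 22.1%.

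**Figure D3:**
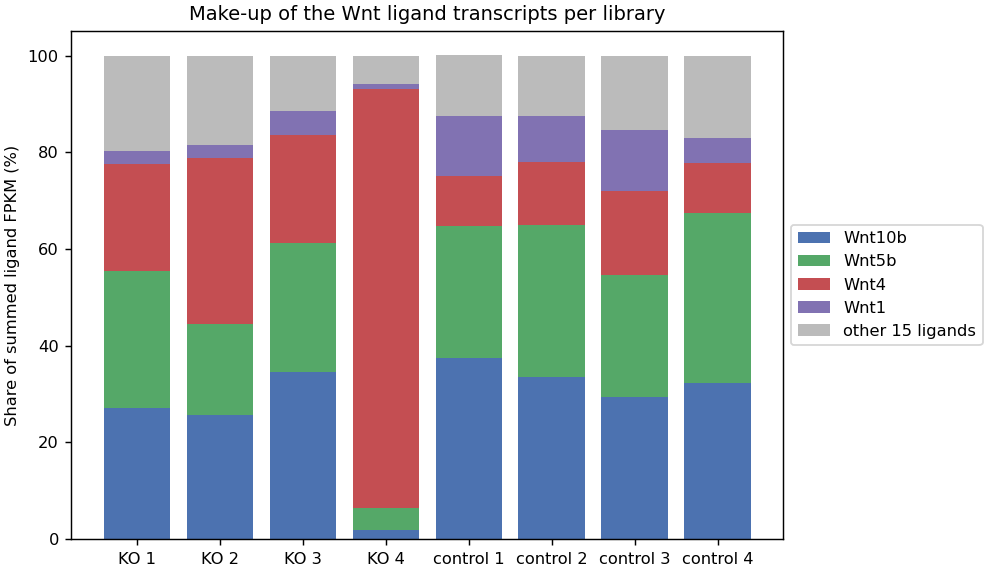
Share of the summed ligand FPKM (y axis, %) held by Wnt10b, Wnt5b, Wnt4, Wnt1 and the other 15 ligands in each library (x axis). Wnt4 takes 86.7% in KO 4, and at least 22.1% in each KO library, against at most 17.2% in a control library; a share also depends on the level of the other ligands.

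The other ligands were scarce. Wnt9a, Wnt16, Wnt11, Wnt2b, Wnt6 and Wnt10a had means of 0.0814 to 0.403 FPKM in KO and 0.103 to 0.79 FPKM in control, with overlapping groups, and none passed. Wnt16, a protector of cortical bone against fracture, had 0.387, 0.578, 0.186 and 0.0371 FPKM in KO 1 to 4 and 0.924, 0.54, 0.491 and 1.2 FPKM in control 1 to 4 (log2 fold change -1.38 ± 0.66, edgeR adjusted p = 0.214). The remaining 8 ligands, Wnt2, Wnt3, Wnt3a, Wnt7a, Wnt7b, Wnt8a, Wnt8b and Wnt9b, did not pass the filter and were not tested. Of these Wnt3, Wnt7a, Wnt8a and Wnt8b were not measurable, and Wnt8b was listed at 0 counts in every library.

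Among the Frizzled receptors, Fzd5, Fzd4, Fzd1 and Fzd7 were the most abundant, and 1 of the 10 fell. Fzd7 (chromosome 1, 59482424 to 59486955, plus strand) had 2.16, 2.87, 2.87 and 2.12 FPKM in KO 1 to 4, against 3.95, 3.79, 3.58 and 4.81 FPKM in control 1 to 4. The groups did not overlap. KO stood at 0.633-fold of control (log2 fold change -0.66 ± 0.14, edgeR adjusted p = 0.0261), and omission of control 2, control 3, control 4 or KO 1 ended the call (edgeR adjusted p as high as 0.0765). Fzd5, the most abundant Frizzled gene, had 5.11, 4.38, 2.9 and 2.72 FPKM in KO 1 to 4 and 5.87, 5.59, 5.46 and 5.19 FPKM in control 1 to 4. Its groups did not overlap, but KO 1 was just below control 4. Fzd5 did not pass (log2 fold change -0.53 ± 0.19, edgeR adjusted p = 0.117), and passed at 0.0474 without KO 1. It shares 1233 of its 6915 exon bases with the opposite-strand Gm38058, which averaged 21.8 counts in KO and 18.5 in control.

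Fzd4, a receptor also used by the ligand norrin in blood vessels, had 2.72, 4.13, 3.44 and 5.26 FPKM in KO 1 to 4 and 3.47, 4.14, 5.45 and 5.76 FPKM in control 1 to 4. The groups overlapped widely (log2 fold change -0.25 ± 0.26, edgeR adjusted p = 0.568). Fzd1 was the Frizzled gene with a fitted value above 0, at 4.24 ± 1.39 FPKM in KO and 3.69 ± 0.411 FPKM in control (0.24 ± 0.23, adjusted p = 0.552). Fzd2 and Fzd3 did not overlap between groups and were low in both, with means of 0.322 and 0.109 FPKM in KO and 0.85 and 0.235 FPKM in control. Their edgeR adjusted p was 0.11 for Fzd2 and 0.0558 for Fzd3, the member nearest to the threshold from outside. Fzd6, Fzd8 and Fzd9 overlapped between groups and did not pass (adjusted p 0.106 to 0.261). Fzd10 had at most 12 counts in a KO library and at most 36 in a control library, so it is given without a fold.

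Of the 3 co-receptors, Lrp5 and Lrp6 fell and Lrp4 did not pass. Lrp5 (chromosome 19, 3584828 to 3686564, minus strand) had 6.45, 7.18, 6.45 and 4.87 FPKM in KO 1 to 4 and 9.21, 8.99, 8.86 and 7.72 FPKM in control 1 to 4. Lrp6 (chromosome 6, 134446476 to 134566913, minus strand) had 1.85, 2.02, 1.76 and 1.66 FPKM in KO 1 to 4 and 2.22, 2.51, 2.39 and 2.42 FPKM in control 1 to 4. Neither gene overlapped between groups, and KO 4 was the lowest library for both. Lrp5 stood at 0.727-fold (log2 fold change -0.46 ± 0.12, edgeR adjusted p = 0.0468). Lrp6 stood at 0.778-fold (-0.36 ± 0.10, edgeR adjusted p = 0.0466). These were the called members nearest to the threshold. Lrp5 lost its call without any single library other than KO 2, and Lrp6 without any other than control 1 (adjusted p up to 0.137 and 0.138). Over all 24 alternative analyses Lrp5 lost its call in 17 and Lrp6 in 16. For both these included every limma fit, no filter on low counts and the muscle score as a covariate. Lrp4, the sclerostin-binding co-receptor, had 6.72, 9.01, 5.28 and 3.39 FPKM in KO 1 to 4 and 7.12, 11.9, 9.27 and 10.5 FPKM in control 1 to 4. Its groups overlapped through KO 2 (log2 fold change -0.65 ± 0.27, edgeR adjusted p = 0.156).

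Ryk, a receptor with an inactive kinase domain that binds Wnt5a and other Wnts, was the alternative receptor that fell. Ryk (chromosome 9, 102834917 to 102907953, plus strand) had 5.45, 7.98, 5.02 and 3.89 FPKM in KO 1 to 4, against 11.9, 14.8, 11.3 and 13.8 FPKM in control 1 to 4. The groups were well apart, with KO 2 and control 3 the nearest pair. Ryk averaged 5.58 ± 1.73 FPKM in KO and 12.9 ± 1.64 FPKM in control (SD, n = 4 each). KO stood at 0.439-fold of control (log2 fold change -1.19 ± 0.19, edgeR adjusted p = 0.0107), and the gene passed with any single library left out (adjusted p at most 0.0391). The difference between Ryk and the co-receptors was not tested. Ror2, a receptor tyrosine kinase for Wnt5a, had 0.579, 0.619, 0.279 and 0.0865 FPKM in KO 1 to 4 and 0.718, 0.56, 1.08 and 1.04 FPKM in control 1 to 4. KO 1 and KO 2 lay above control 2, and the gene did not pass (-1.13 ± 0.54, edgeR adjusted p = 0.219). Ror1 averaged 0.231 FPKM in KO and 0.296 FPKM in control and did not pass either (adjusted p = 0.587).

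**Figure D4:**
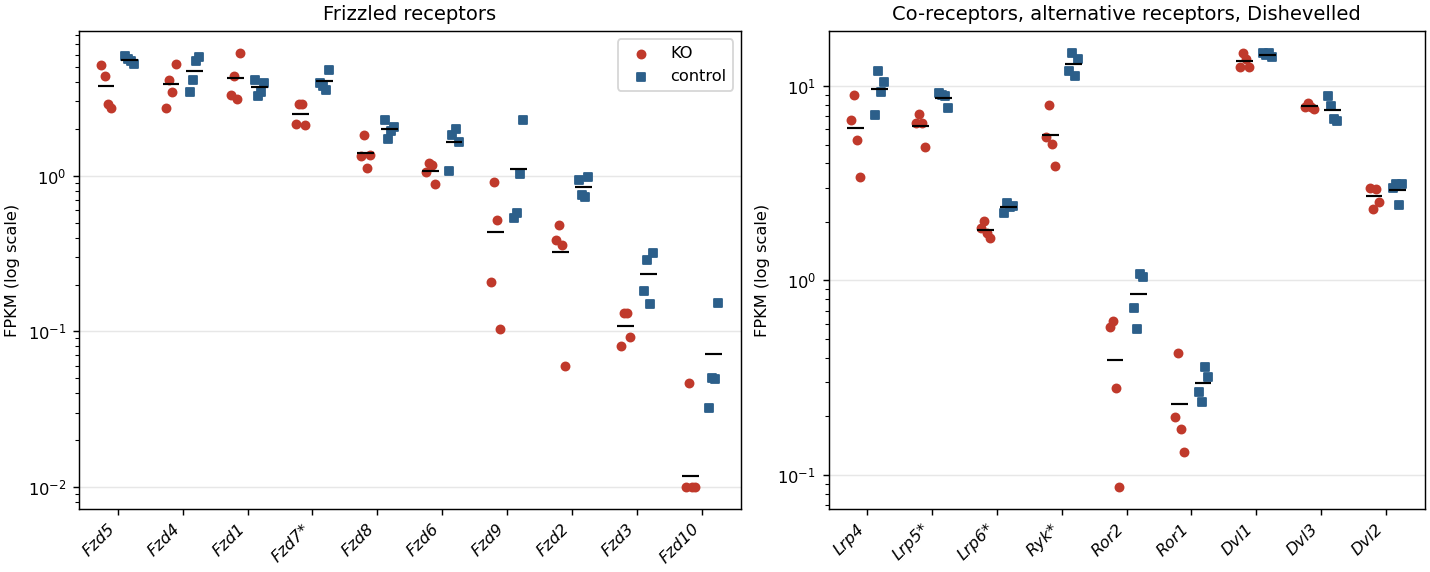
Levels in FPKM (y axes, log scale) of the 10 Frizzled genes (left) and of the co-receptors, alternative receptors and Dishevelled genes (right), KO circles left of control squares, 1 point per library, bars at the group mean, asterisks for falls past the threshold, values under 0.01 drawn at 0.01. Ryk separates into 3.89 to 7.98 FPKM in KO and 11.3 to 14.8 FPKM in control, while Dvl1, Dvl2 and Dvl3 overlap.

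The Dishevelled genes, which every Frizzled branch uses, did not differ beyond their spread. Dvl1 had 12.5, 14.8, 13.7 and 12.6 FPKM in KO 1 to 4 and 14.8, 14.4, 14.8 and 14.1 FPKM in control 1 to 4, with a 95% confidence interval of the fold from 0.816 to 1.08 (edgeR adjusted p = 0.528). Dvl3 had 7.82, 8.21, 7.77 and 7.65 FPKM in KO 1 to 4 and 8.88, 7.87, 6.8 and 6.6 FPKM in control 1 to 4, with an interval from 0.911 to 1.24 (adjusted p = 0.596). Dvl2 averaged 2.7 ± 0.325 FPKM in KO and 2.93 ± 0.331 FPKM in control, with an interval from 0.783 to 1.14 (adjusted p = 0.707). All 3 ranges overlapped between the groups. Dvl2 shares 1151 of its 6298 exon bases with Acadvl on the opposite strand, which averaged 18.1 FPKM in KO and 20.9 FPKM in control. How the counting treated strand was not given in the sources used here, so the level of Dvl2 is uncertain.

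Beta-catenin and Axin1 did not pass. Ctnnb1, which encodes beta-catenin and is regulated mostly at the protein level, was the most abundant member, with 73.8, 68.7, 56.7 and 54.3 FPKM in KO 1 to 4 and 65.5, 70.7, 94.8 and 59.5 FPKM in control 1 to 4. Control 3 was the highest and the groups overlapped. The fitted log2 fold change, -0.19 ± 0.19 (edgeR adjusted p = 0.568), was 0.05 without control 3. Axin1, the scaffold of the destruction complex, had 15, 15.6, 15.4 and 20 FPKM in KO 1 to 4 and 14, 14, 10.7 and 13.4 FPKM in control 1 to 4. Its groups did not overlap, with KO above control, but the log2 fold change of 0.38 ± 0.13 did not pass (edgeR adjusted p = 0.0961).

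Among the targets and feedback genes, 1 of 9 fell. Ccn4, also called WISP1, is a matricellular protein induced by Wnt1 that is made by bone-forming cells. Ccn4 (chromosome 15, 66891320 to 66923201, plus strand) had 5.01, 5.98, 6.01 and 1.35 FPKM in KO 1 to 4, against 16.6, 18.4, 15.5 and 16.4 FPKM in control 1 to 4. The control libraries were close together, and KO 4 was the lowest of all. KO stood at 0.277-fold of control (log2 fold change -1.85 ± 0.38, edgeR adjusted p = 0.0227), and the call ended on omission of control 2, control 3, control 4 or KO 3 (edgeR adjusted p as high as 0.0615).

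None of the other 8 targets and feedback genes passed. Axin2, the most widely used readout of the beta-catenin branch, had 0.226, 0.535, 0.4 and 0.599 FPKM in KO 1 to 4 and 0.611, 0.771, 0.516 and 0.672 FPKM in control 1 to 4. KO 1 was the lowest, and KO 2 and KO 4 lay within the control range (log2 fold change -0.51 ± 0.31, edgeR adjusted p = 0.326, 95% confidence interval 0.433-fold to 1.15-fold). Tcf7, a Tcf factor that T cells also make, had 4.42, 3.3, 3.75 and 3.98 FPKM in KO 1 to 4 and 5.28, 4.89, 4.37 and 2.92 FPKM in control 1 to 4, with both the highest and the lowest value in control (-0.15 ± 0.20, adjusted p = 0.681). Lef1 averaged 0.326 ± 0.111 FPKM in KO and 0.239 ± 0.0222 FPKM in control (0.49 ± 0.29, adjusted p = 0.314).

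Apcdd1, a membrane inhibitor of Wnt binding, had 0.515, 0.574, 0.693 and 0.785 FPKM in KO 1 to 4 and 1.1, 1.1, 0.994 and 0.753 FPKM in control 1 to 4. The groups overlapped through KO 4 and control 4 (-0.59 ± 0.20, edgeR adjusted p = 0.0958). The other feedback genes were Nkd1 and Nkd2, which bind Dishevelled, and Znrf3 and Rnf43, ubiquitin ligases that remove Frizzled from the surface. They overlapped between groups, with fitted log2 fold changes from -0.37 to -0.09 and adjusted p from 0.273 to 0.837. Summed over the 9 genes, levels were 9.41 to 15.2 FPKM in KO and 25.1 to 29.8 FPKM in control; without Ccn4 they were 8.05 to 9.26 FPKM in KO and 8.69 to 11.7 FPKM in control, and overlapped.

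**Figure D5:**
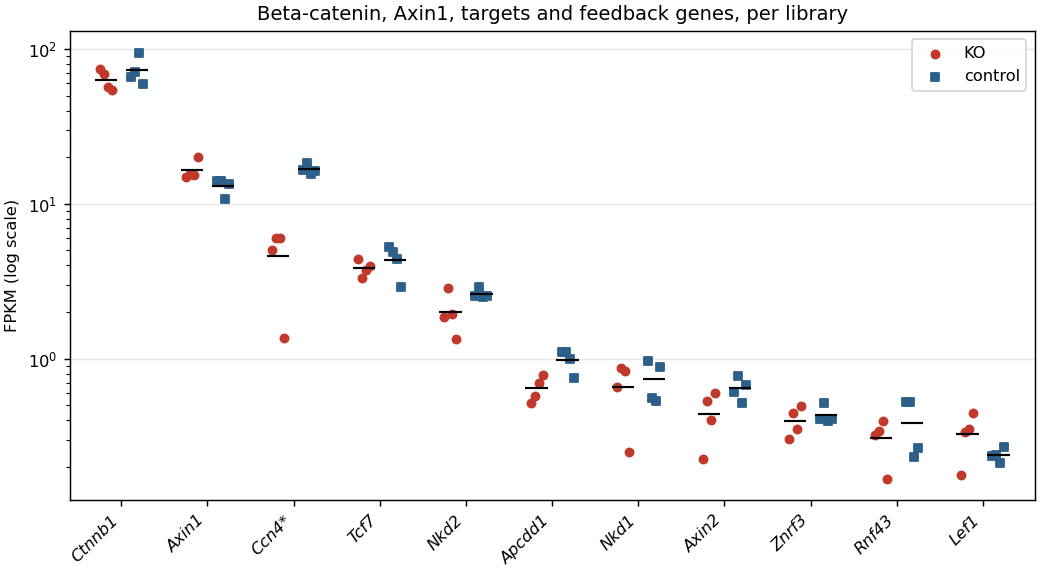
Levels in FPKM (y axis, log scale) of beta-catenin (Ctnnb1), Axin1 and the 9 target and feedback genes, KO circles left of control squares, 1 point per library, bars at the group mean. The asterisk marks Ccn4, at 1.35 to 6.01 FPKM in KO and 15.5 to 18.4 FPKM in control; the ranges of Axin2, Tcf7 and Lef1 overlap.

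The rest of the pathway was read from 5 lists of 47 genes in all. In a list of the destruction complex, which holds beta-catenin low, and of proteins that act on it, 1 of 11 genes rose and 0 fell. That gene, the kinase Gsk3a, had 54.5, 53.3, 54.5 and 55.9 FPKM in KO 1 to 4 and 50.1, 44.8, 38.6 and 41.7 FPKM in control 1 to 4 (log2 fold change 0.35 ± 0.09, edgeR adjusted p = 0.037). Its groups did not overlap, and of the single omissions only those of control 1 or KO 2 left the call in place (edgeR adjusted p as high as 0.108 for the rest). Over all 24 alternative analyses Gsk3a lost its call in 15. In 5 of the 11 genes, Gsk3a, Csnk1e, Fbxw11, Tnks and Tnks2, every KO library was above every control library. Among all genes tested this share was 9.21%, as given above. Not every gene of the list acts against beta-catenin, and what these values mean for it was not tested. Over the list the median log2 fold change was 0.28, against -0.02 over all genes tested.

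Among 11 Tcf partners and nuclear cofactors 1 rose and 0 fell. This was Ctnnbip1, a small protein that keeps beta-catenin from binding Tcf factors. It had 10.4, 12.2, 11.8 and 13.2 FPKM in KO 1 to 4, against 7.08, 5.65, 5.92 and 4.72 FPKM in control 1 to 4. The groups were well apart, and the log2 fold change of 1.05 ± 0.15 (edgeR adjusted p = 0.00889) passed with any single library left out (adjusted p at most 0.0318). Of 8 genes of Wnt secretion, including Porcn and Wls, which lipidate and carry the ligands, 0 passed in either direction. This does not show that they were unchanged: the 95% confidence interval of the Porcn fold ran from 0.715 to 2.39.

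Of the 7 R-spondin and Lgr genes, which shield Frizzled receptors from Znrf3 and Rnf43, 1 fell and 0 rose. Only 6 were tested, since Rspo4 was not measurable. Lgr4, the most broadly expressed Lgr receptor, had 1.42, 1.6, 1.53 and 0.904 FPKM in KO 1 to 4 and 2.07, 2.14, 2.18 and 2.46 FPKM in control 1 to 4 (log2 fold change -0.68 ± 0.18, edgeR adjusted p = 0.0463). Its groups did not overlap, and of the single omissions only that of KO 4 left the call in place (edgeR adjusted p as high as 0.133 for the rest). Over all 24 alternative analyses Lgr4 lost its call in 17.

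Of 10 genes of planar cell polarity, a branch without beta-catenin that orients cells, 3 fell and 1 rose. Among the fallers, Prickle1, a cytoplasmic polarity protein, averaged 2.01 ± 0.447 FPKM in KO and 3.58 ± 0.307 FPKM in control (log2 fold change -0.81 ± 0.18, edgeR adjusted p = 0.0289). Ptk7, a receptor-like pseudokinase, averaged 3.15 ± 0.667 FPKM in KO and 5.12 ± 0.652 FPKM in control (-0.67 ± 0.16, edgeR adjusted p = 0.0338). Daam2, an actin-nucleating formin, averaged 4.08 ± 1.26 FPKM in KO and 7.39 ± 0.878 FPKM in control (-0.84 ± 0.21, edgeR adjusted p = 0.0402). None of the 3 overlapped between groups. Each call ended on omission of any control library or of KO 3, for Ptk7 also of KO 2 and for Daam2 also of KO 1 (edgeR adjusted p as high as 0.1). Celsr3, an atypical cadherin known from neurons, rose. It had 4.35, 4.67, 4.86 and 12.1 FPKM in KO 1 to 4 and 2.13, 2.03, 1.78 and 1.45 FPKM in control 1 to 4, with no overlap and KO 4 the highest (1.86 ± 0.36, edgeR adjusted p = 0.019). The call ended on omission of control 2, control 3 or control 4 (edgeR adjusted p as high as 0.0619).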

How the data were processed

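The members and gene lists were chosen with earlier results of these data known. The authors deposited 1 table of 55401 genes with, per the file headers, an estimated count and an FPKM value for each gene and library. The deposited FPKM is 0.0001 where the count is 0. The submitters' processing notes list HISAT2 2.0.4, StringTie 1.3.4d, DESeq2 and GRCm38 but not what each did. Counter and strand setting were not given in the sources used here. Rounding altered no value. Values of 4 (7854) and 8 (4839) outnumber those of 3 (2724) and 5 (1566), so 1 fragment was taken as about 4 counts. Values of 1 (4421) and 2 (3306) are also frequent, so this factor is approximate and does not hold for every gene. Column names matched the 8 sample titles.

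The main test was edgeR 4.0.16 in R 4.3.3: quasi-likelihood F test, two-sided, TMM scaling, filterByExpr at a minimum count of 10, Benjamini-Hochberg adjustment over 20152 genes, threshold 0.05. Levels are FPKM. Full values are given for members past the threshold and for the 2 most abundant members of each class; others named with their values in every library were chosen after those values were seen. The tests were run on simulated counts with known changes first. Alternatives were DESeq2 1.42.0, limma 3.58.1 on log2(FPKM + pseudocount), other scalings and filters, counts divided by 4, a muscle score as covariate, a replicate block and omissions of libraries. No pair of libraries was a duplicate (smallest chi-square per degree of freedom 24.6).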

Additional observations from a re-analysis of the deposited data

Results flagged for a closer look

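In 82 groups of 4 libraries, 2 for each of the 41 tested members, 5 had a library whose gap to its nearest neighbour was most of the group's range (Dixon's test at 95%); chance flags about 1 in 20 groups. Axin1 was 20 FPKM in KO 4, against 15 to 15.6 FPKM in the other KO libraries. Nkd2 was 2.89 FPKM in control 2, against 2.51 to 2.54 FPKM in the other control libraries. Znrf3 was 0.513 FPKM in control 2, against 0.398 to 0.41 FPKM in the others. Fzd10 was 0.0469 FPKM in KO 2, where the other KO libraries were listed at 0 counts, and 0.153 FPKM in control 4, against 0.0322 to 0.0499 FPKM in the others; both rest on at most 36 counts.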

How the results depend on the processing

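The number of called members, 8, was 5 with no filter on low counts, 4 with limma on log2(FPKM + 0.5) without a filter, 5 with the muscle score as a covariate, 0 with control 3, control 4 and KO 2 left out (an alternative chosen after seeing the data; 11 members had an unadjusted p under 0.05) and 2 to 9 with 1 library left out. It was 12 with DESeq2, where all 8 were called again, and 6 to 9 with the other scalings, filters, pseudocounts and with control 3 and KO 4 left out. No alternative called a member higher in KO. The count over all genes, 2083, was 3873 with DESeq2, 1283 with limma without a filter, 1323 with control 3 and KO 4 left out, 23 with control 3, control 4 and KO 2 left out, and 769 to 2230 with 1 library left out. Fewer libraries can lower such counts by themselves; otherwise the cause was not tested. With the replicate number as a block 0 members and 56 genes were called, and 15 members had an unadjusted p under 0.05. For this fit and the one without control 3, control 4 and KO 2, the number of all genes under an unadjusted p of 0.05 was not counted. Deviations of same-numbered libraries from their group means had correlations of 0.106, -0.172, 0.092 and -0.055 for numbers 1 to 4. Differently numbered pairs ran from -0.143 to 0.189. Such weak values cannot show whether or not the numbers pair the libraries. Signs turned for the log2 fold changes of Ctnnb1 (-0.29 to 0.05 with 1 library left out, 0.05 being without control 3; 0.1 with control 3 and KO 4 left out), for Fzd4 (0.1) and Dvl3 (-0.02) with control 3, control 4 and KO 2 left out, and for Ripk4, whose log2 difference of -0.017 on the log2(FPKM + 0.5) scale ranged from -0.047 to 0.001 with 1 library left out. Ligands under about 0.1 FPKM rest on a few fragments, so differences there were not detectable at this depth.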

Other observations

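In KO 4 several pathway genes, chosen after their values were seen, had their highest level of the 8 libraries. KO 4 was the highest library for 18.5% of all tested genes and for 5 of the 41 tested members. Porcn, which lipidates Wnt ligands, had 4.79, 4.93, 3.75 and 11.9 FPKM in KO 1 to 4 and 3.95, 6.54, 5.2 and 4.31 FPKM in control 1 to 4. Tle3, a corepressor of Tcf factors, had 9.68, 5.93, 8.54 and 14.2 FPKM in KO 1 to 4 and 7.29, 8.14, 6.33 and 6.58 FPKM in control 1 to 4. KO 4 is the library in which Wnt4 reached 16.6 FPKM and Wnt10b 0.36 FPKM.

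Gsk3b, a kinase of the destruction complex, spread widely within both genotypes. It had 5.45, 1.27, 5.85 and 2.11 FPKM in KO 1 to 4 and 5.06, 1.22, 0.883 and 4.89 FPKM in control 1 to 4, so its spread within each group (SD 2.32 FPKM in KO and 2.27 FPKM in control) was larger than the difference of the means, 3.67 and 3.01 FPKM. Tmed2, a carrier of secreted cargo, was low in KO 2 (30.5 FPKM) and control 2 (39.0 FPKM), and at 82.5 to 113 FPKM in the other KO and 91.0 to 97.9 FPKM in the other control libraries. Pygo2, a cofactor of beta-catenin, had 5.8, 1.26, 3.33 and 12.6 FPKM in KO 1 to 4 and 7.64, 9.67, 9.17 and 17.3 FPKM in control 1 to 4. None of these 3 genes passed the test between groups (edgeR adjusted p 0.405 to 0.912).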
